A study of Bos taurus with 21 samples.

Results

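Muscle RNA of 2 Blonde d'Aquitaine (BA) and 3 Charolais (CH) foetuses was compared at 260 days post conception (dpc), the stage of this series that is closest to birth. These were 5 of 21 arrays, taken by the breed and the gestational stage in their labels. Both are French beef breeds, and BA is a breed in which a myostatin mutation occurs without being carried by every animal. Per the study, the BA foetuses were not genotyped for it. The other 16 arrays held the same breeds at 110, 180 and 210 dpc, with 5, 5 and 6 arrays, and served for the spread between foetuses and for the comparison with earlier stages. Each foetus had 1 array, and per the study's methods the dams were primiparous cows bred by artificial insemination, with no treatment of the dams or foetuses stated.

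Both BA foetuses at 260 dpc were female and had 1 sire. CH replicates 1 and 2 were male, CH replicate 3 was female, and the 3 CH foetuses had 2 sires, so sire and breed cannot be told apart. Slide 2 held BA replicate 2 and CH replicate 1, slide 4 held BA replicate 1 and CH replicate 3, and CH replicate 2 was on slide 5. The labels name Longissimus thoracis as the muscle, whereas the methods name *m. Semitendinosus*. All 9 skeletal muscle markers with a probe were well above background on all 5 arrays, and their summed level spanned 11000 to 12300 in BA and 10400 to 13000 in CH.

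Levels are given as normalized log2 intensity, the log2 of the spot intensity relative to the 75th percentile of its array, shifted by a constant that puts the middle probe of most arrays near 0. A difference of 1 is thus a 2-fold change, and a negative difference means lower in BA. The 75th percentile was 524.9 to 668.9 intensity units on the 5 arrays, and 29491 to 30544 probes were well above background. Of the 43653 probes, 20150 passed the filter on low values, and they covered 7935 named genes. Each gene was measured by its brightest tested probe unless another probe is mentioned. Levels of different probes were not set against each other. With 2 against 3 foetuses the number of arrays limits the precision, and in whole muscle fewer cells of a type and less RNA per cell cannot be told apart.

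No probe differed between the breeds at 260 dpc at an adjusted p under 0.05 (limma with Benjamini-Hochberg adjustment, 0% of 20150 probes), and the lowest adjusted p was 0.11. At an unadjusted p under 0.05 there were 1076 probes (5.34%), of which 513 were lower and 563 higher in BA. By gene, 207 of 7935 were lower (2.61%) and 245 higher (3.09%) at that threshold. Both BA arrays lay below all 3 CH arrays in 774 genes (9.75%) and above all of them in 690 genes (8.7%). The median gene differed by 0, and 50.8% of genes were below 0. Without CH replicate 3, 31 probes passed the adjusted threshold, 28 of them lower in BA. Each of the other 4 arrays, left out in turn, gave 0 or 1 such probe: 0 without BA replicate 1, *PKN2* (1.56) without BA replicate 2, an unnamed probe (-2.29) without CH replicate 1, and *MSTN* (2.69) without CH replicate 2.

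Cells that run short of amino acids, or that meet other stresses, translate more of the transcription factor ATF4. ATF4 is known to switch on genes for amino acid synthesis and uptake and the aminoacyl-tRNA synthetases, which load amino acids onto tRNA for protein synthesis. In late gestation muscle accumulates protein quickly, and its fibres shift from foetal towards adult myosins and towards mitochondrial metabolism.

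This amino acid response was covered by 4 lists, namely ATF4 and its regulators, synthesis, transport and the cytosolic synthetases. Of their 86 genes, 76 had a probe and 60 were tested. The median difference of the 60 was -0.18 against 0 over all genes, and 44 of them were below 0. At an unadjusted p under 0.05, 20 were lower in BA and only *LARS1* was higher, where 2.61% and 3.09% of all genes were. Both BA arrays lay below all CH arrays in 21 of the 60 (35%, against 9.75% of all genes) and above them in 5 (8.33%, against 8.7%). The differences of the 20 lower genes ran from -1.66 to -0.26, and none passed the adjusted test. In 17 of the 20 the BA arrays did not overlap the CH arrays, the exceptions being *PSPH*, *SLC7A5* and *MARS1*. As the 20 were picked by p on these same arrays, that count is no separate evidence. The lists themselves were chosen with earlier results of these data known.

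*ATF4* itself stood at 8.72 and 8.86 on the BA arrays and at 9.91, 9.18 and 9.22 on the CH arrays. Both BA foetuses were below every CH foetus, by 0.65 on average (difference -0.65, SE 0.19, adjusted p = 0.54). All 3 tested *ATF4* probes ran the same way, from -0.72 to -0.62, and the probe with the largest difference had an adjusted p of 0.23. *CEBPG*, a partner protein with which ATF4 binds DNA, stood at 3.91 and 3.86 in BA and at 5.82, 5.10 and 4.41 in CH. Its difference was -1.23 (SE 0.26, adjusted p = 0.23), a 2.34-fold higher level in CH, and its 3 probes gave -1.28 to -1.23. Over all 15 regulators tested, *ATF4* and *CEBPG* included, 9 were below 0 and the median was -0.11. *DDIT3*, which encodes the stress factor CHOP, was at 3.97 and 3.70 in BA and at 5.38, 4.22 and 3.73 in CH, so that only CH replicates 1 and 2 were above both BA arrays (-0.61, adjusted p = 0.98). *HSPA5*, the main chaperone of the endoplasmic reticulum, differed by 0.20 (SE 0.17), and *ATF3*, another stress factor of this family, by 0.79 with an SE of 1.04.

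Among the synthesis genes, 12 of 17 were below 0 (median -0.18), 6 of them at an unadjusted p under 0.05 and none above 0 at that threshold. *ASNS*, which makes asparagine, stood at 2.66 and 2.57 in BA and at 4.37, 5.14 and 3.30 in CH. This was the largest negative difference of any tested gene, -1.66 (95% interval -2.47 to -0.85, adjusted p = 0.25), or 3.16-fold higher in CH. The 2 BA foetuses were nearly alike, whereas the CH foetuses were spread out with replicate 3 closest to BA.

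The 3 enzymes of serine synthesis, *PHGDH*, *PSAT1* and *PSPH*, were all lower in BA on average. *PHGDH*, the first enzyme of that route, was at 3.01 and 2.66 in BA and at 4.13, 5.28 and 3.60 in CH (-1.50, SE 0.32, adjusted p = 0.24). *PSAT1*, the next enzyme, was at 3.82 and 3.60 against 5.03, 5.84 and 4.11 (-1.28, SE 0.31, adjusted p = 0.30). In *PSPH*, the last enzyme, the values were 1.58 and 1.03 against 3.04, 4.42 and 1.17. There CH replicate 3 lay between the BA arrays, and the difference of -1.57 had an SE of 0.56. *PYCR1*, which completes proline synthesis, was at 4.54 and 4.22 in BA and at 6.03, 6.41 and 5.04 in CH (-1.44, SE 0.27, adjusted p = 0.15). *MTHFD1L*, of the mitochondrial folate pathway, differed by -1.03 (adjusted p = 0.35), and *SHMT2*, which converts serine to glycine in mitochondria, by -0.50 with no overlap. *ASS1*, which acts in arginine synthesis, went the other way at 0.39 with no overlap (adjusted p = 1).

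In the transport list, 8 of 10 genes were below 0 (median -0.21), and 4 were lower at an unadjusted p under 0.05. *SLC3A2*, the heavy chain shared by several amino acid exchangers, was at 4.52 and 4.60 in BA and at 5.36, 5.44 and 4.89 in CH (-0.67, SE 0.15, adjusted p = 0.25). *SLC7A5*, a light chain that pairs with it and carries leucine, was at -0.21 and -0.68 in BA and at 1.24, 1.63 and -0.27 in CH (-1.31, SE 0.39, adjusted p = 0.56). Both male CH foetuses were above both BA foetuses, and the female CH foetus was within the BA range. The neutral amino acid carriers *SLC1A4* and *SLC1A5* differed by -1.15 and -1.30 with no overlap, at adjusted p values of 0.56 and 0.92. *SLC38A2*, a sodium-coupled carrier that is also a known ATF4 target, differed by -0.10 (SE 0.16).

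Of the 18 cytosolic synthetases tested, 15 were below 0, with a median of -0.25. At an unadjusted p under 0.05, 8 were lower and 1 was higher. *AARS1*, the alanyl-tRNA synthetase, stood at 6.84 and 6.94 in BA and at 7.63, 8.11 and 7.47 in CH. Its difference of -0.85 (95% interval -1.15 to -0.55), or 1.8-fold higher in CH, shared the lowest adjusted p of the comparison, 0.11. The threonyl and tyrosyl enzymes *TARS1* and *YARS1* differed by -0.72 and -1.06, each with no overlap and an adjusted p of 0.15. *SARS1* and *IARS1*, the seryl and isoleucyl enzymes, differed by -0.86 and -0.80, both at an adjusted p of 0.25, and *GARS1*, the glycyl enzyme, by -1.06 at 0.38. For *MARS1*, the methionyl enzyme, the brightest probe gave -0.72 with overlap, while another probe was at 1.23 on both BA arrays and at 2.33, 2.81 and 1.85 on the CH arrays (-1.10, SE 0.19, adjusted p = 0.12).

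The synthetases did not all differ in the same direction. *LARS1*, the leucyl enzyme, was at 3.06 and 3.29 in BA and at 2.75, 3.03 and 2.72 in CH, a difference of 0.35 (SE 0.12, adjusted p = 0.77), and its 3 tested probes were all above 0 (0.17 to 0.35). *EPRS1*, for glutamate and proline, differed by -0.26, while the arginyl enzyme *RARS1* lay near 0 (-0.03, SE 0.12). For *NARS1*, the asparaginyl enzyme, the 5 tested probes were all below 0, between -0.41 and -0.24.

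**Figure D1:**
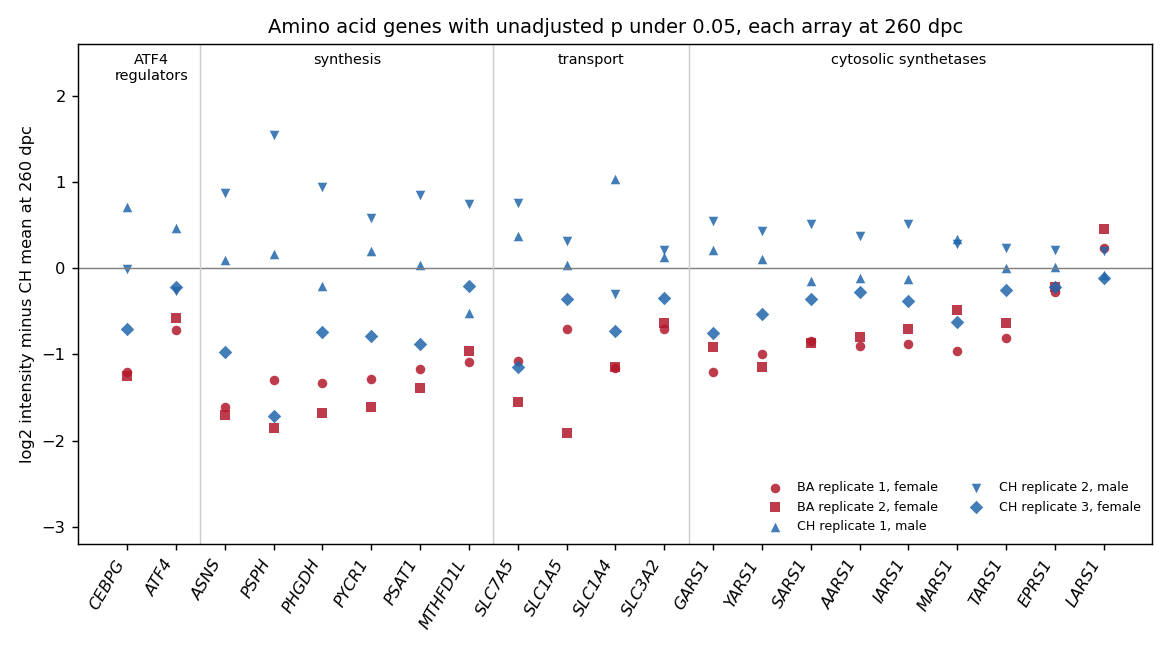
Normalized log2 intensity of the 21 amino acid genes at an unadjusted p under 0.05, on each of the 5 arrays at 260 dpc, relative to the mean of the 3 CH arrays; symbols mark the array and its sex, and vertical lines part the 4 lists. In 17 of the 20 genes lower in BA both red symbols lie below all blue ones, CH replicate 3 (diamond) is the lowest CH array in 18 of the 20, and *LARS1* at the right runs the other way. The genes shown were picked by p on these same arrays.

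A further 16 genes of the 4 lists had a probe but were under the filter on low values, and 12 of them were below 0. The 4 with an unadjusted p under 0.05 in a fit over all probes were *CBS* (-1.50), *MTHFD2* (-1.31), *CARS1* (-1.10) and *GPT2* (-0.92). *CBS* starts the route from homocysteine to cysteine, *MTHFD2* is a mitochondrial folate enzyme, *CARS1* loads cysteine and *GPT2* makes alanine. Of these, *CARS1* and *GPT2* were without overlap, *CARS1* at 0.31 and 0.95 in BA and at 1.61, 2.33 and 1.26 in CH. *TRIB3*, an ATF4 target that dampens the response, was at -0.55 and -1.26 in BA, at 1.63 in CH replicate 1, and at -0.50 and -0.69 in the other CH foetuses.

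Other amino acid lists were read beside these. The mitochondrial synthetases had a median of -0.05 (8 of 12 below 0), with *HARS2* (-0.46) and *CARS2* (-0.35) lower at an unadjusted p under 0.05 and none higher. Amino acid breakdown had a median of -0.19 with 14 of 17 below 0. In that list *IVD*, of leucine breakdown, was at 4.02 and 3.78 in BA and at 4.13, 4.30 and 4.61 in CH (-0.45, SE 0.16, adjusted p = 0.77), and *MCCC1*, also of leucine breakdown, differed by -0.41. *BCAT1*, which starts the breakdown of branched-chain amino acids, differed by 0.47 with both BA arrays above the CH arrays. In the atrophy and proteolysis list 7 of 13 were below 0 (median -0.09), and no gene had an unadjusted p under 0.05 in limma.

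**Figure D2:**
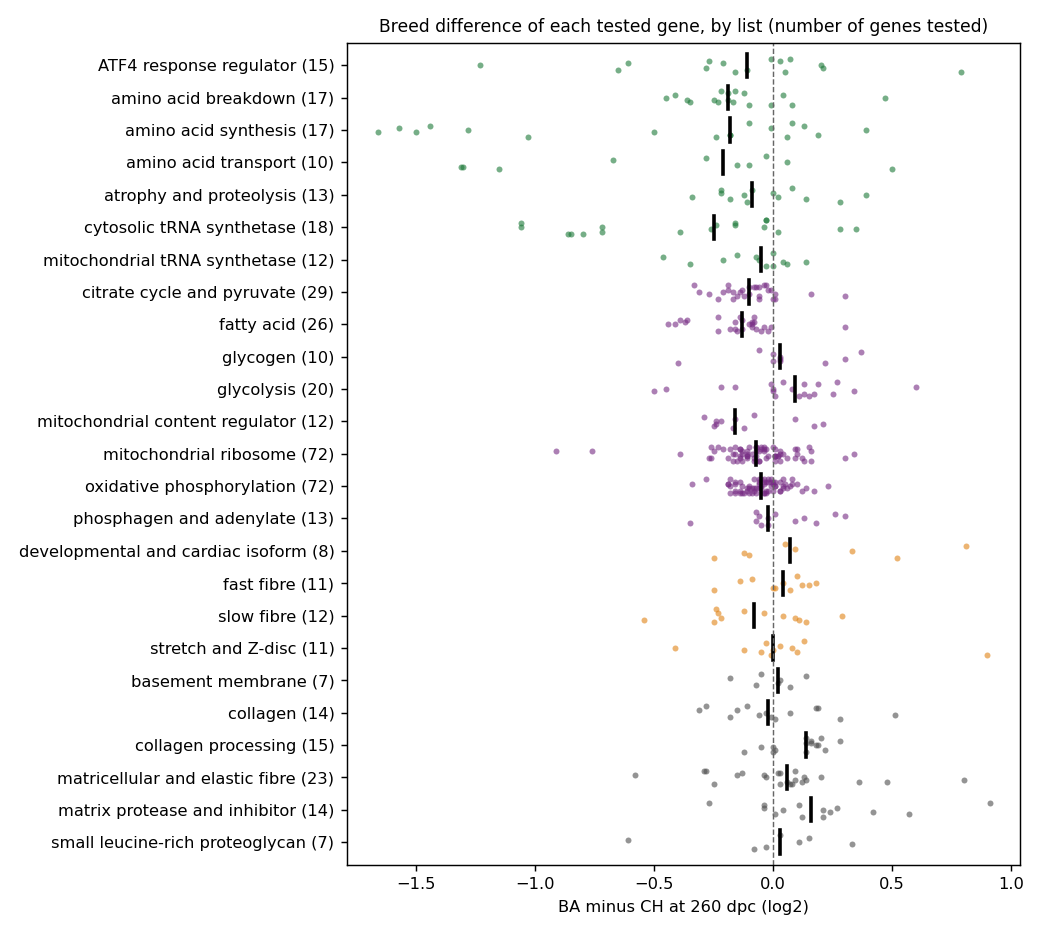
BA minus CH difference at 260 dpc in log2 of every tested gene, by list with the number of genes tested; black bars are list medians and the dashed line is the median of all tested genes. The points furthest to the left are synthesis genes, down to -1.66, and the fatty acid list has 25 of 26 genes below 0.

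Pooled over the amino acid lists, the median difference was near 0 at the earlier stages. The 60 genes had a median breed difference of -0.03 over 110, 180 and 210 dpc, and for the 20 lower genes this earlier mean ran from -0.30 to 0.50. By list, this earlier median was 0.04 in synthesis, -0.09 in transport, -0.07 in the ATF4 regulators and -0.02 in the synthetases. Relative to each gene's mean over the 21 arrays, transport at 110 dpc was at -0.24, -0.12 and 0 in BA. In CH it was at 0.17 and 0.28. The ATF4 regulators also had BA below CH at 110 dpc, while synthesis and the synthetases overlapped. Over the 60 genes the median of the 260 dpc difference minus the earlier mean was -0.20. At an unadjusted p under 0.05 this contrast was lower in 19 and higher in 1 of the 60 genes, against 2.09% and 2.9% of all genes. No probe passed the adjusted threshold in this contrast by limma (0% of 20150 probes, lowest adjusted p = 0.53), and 926 (4.6%) had an unadjusted p under 0.05. Without CH replicate 3, 20 probes passed it, 19 of them lower.

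Stage means are given next for amino acid genes that were picked by p at 260 dpc on these same arrays. A wider gap between the breeds at 260 dpc in them is thus no separate evidence. In BA the mean *ASNS* level was 5.38 at 110 dpc, 4.73 at 180 dpc, 4.10 at 210 dpc and 2.61 at 260 dpc. In CH it was 5.46, 4.78, 3.60 and 4.27. The CH mean at 260 dpc was thus above that at 210 dpc, while the BA mean was below it. CH replicate 3, the female, was itself below the CH mean at 210 dpc, and only the male CH foetuses were above it. The means of *PHGDH* had the same form, at 3.55 and then 2.83 in BA, and 3.44 and then 4.34 in CH, at 210 and 260 dpc. Its level in CH replicate 3 at 260 dpc was 3.60, close to that CH mean at 210 dpc. For *AARS1* both breeds had their highest mean at 260 dpc, 6.89 in BA and 7.74 in CH, from 6.46 and 6.33 at 210 dpc. *SLC3A2* went from 3.90 to 4.56 in BA and from 3.98 to 5.23 in CH between those stages, and *ATF4* from 8.62 to 8.79 and from 8.63 to 9.44. When the level of each gene was centred on its mean over the 21 arrays, the median over the 60 genes was -0.18 to 0.03 on the 16 earlier arrays. It was 0.02 and 0.14 on the BA arrays at 260 dpc and 0.34, 0.40 and 0.25 on the CH arrays, so on this pooled median all 3 CH foetuses near term were above the other 18 foetuses. The ATF4 regulators and the cytosolic synthetases had that order too, but synthesis and transport did not. In synthesis the CH arrays at 260 dpc were at 0.13, 0.17 and -0.16, and those at 110 dpc at 0.23 and 0.3. In transport CH replicate 3 at 260 dpc was at -0.07, and the CH arrays at 110 dpc were at 0.17 and 0.28.

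**Figure D3:**
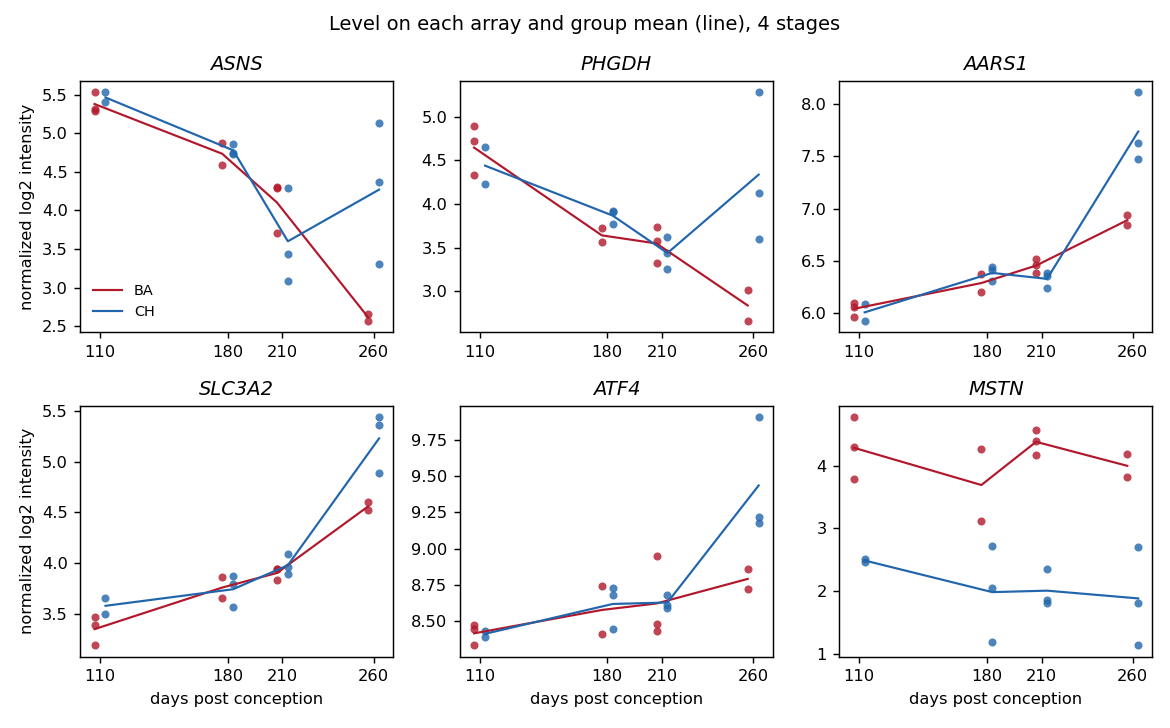
Normalized log2 intensity of 6 genes against days post conception, with a point for each array and lines through the group means (BA red, CH blue). For the 5 amino acid genes, which were picked by p at 260 dpc, the group means lie closer at 210 dpc than at 260 dpc. *ASNS* is higher in BA at 210 dpc. *MSTN* is higher in BA at each stage, with means of 4.29, 3.69, 4.38 and 4.00 against 2.49, 1.98, 2.01 and 1.89.

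**Figure D4:**
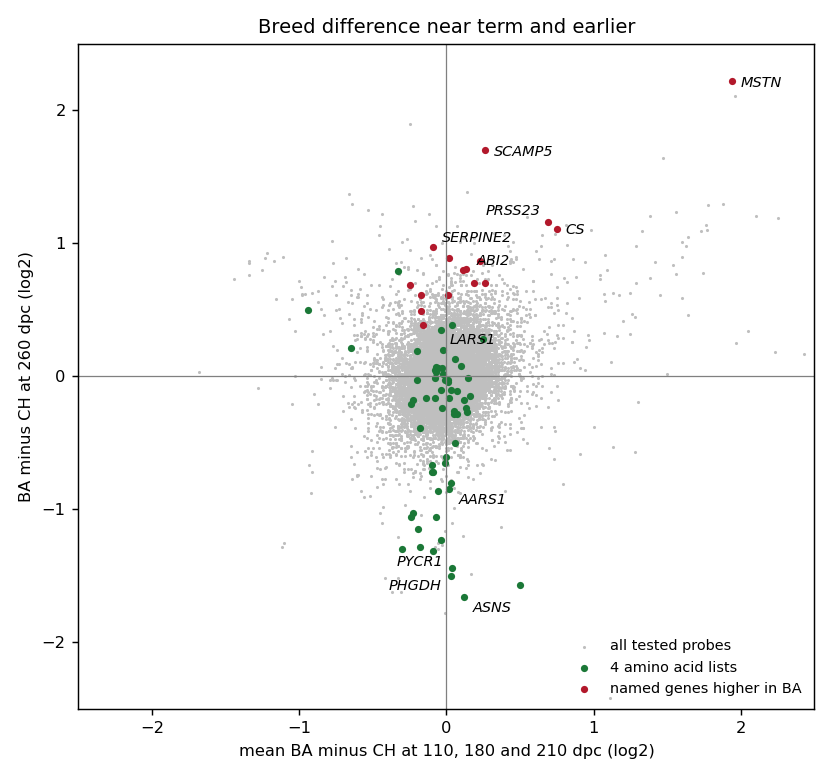
BA minus CH difference at 260 dpc against the mean difference at 110, 180 and 210 dpc, in log2, for all tested probes (grey), the 60 genes of the 4 amino acid lists (green) and the named genes higher in BA (red); 6 probes lie outside the axes. *ASNS*, *PHGDH*, *PYCR1* and *AARS1*, picked by p at 260 dpc, lie near 0 on the horizontal axis and below 0 on the vertical axis. *MSTN* is high on both axes.

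The CH foetuses were not equal in these genes. CH replicate 3, the female, was the lowest of the 3 CH arrays in 32 of the 60 genes (53.3%), as against 31.5% of all genes. CH replicate 1 was the lowest in 19 (31.7%, against 41.1%) and CH replicate 2 in 9 (15%, against 27.4%). Among the 16 foetuses of the earlier stages, 6 of them male, the 60 genes had a median male minus female difference of 0.05, with 36 higher in males. In that fit, by limma, 6 were higher in males at an unadjusted p under 0.05 and 0 were lower, the 6 being *CEBPG* (0.24), *GARS1* (0.32), *MARS1* (0.27), *NUPR1* (0.89), *PHGDH* (0.29) and *YARS1* (0.23). The same counts were not taken over all genes, so whether these genes stand apart by sex was not tested. With female foetuses alone, or the male CH arrays at 260 dpc left out, CH replicate 3 was the only CH array at that stage. The median breed difference of the 60 genes was then -0.16, with 39 below 0. With sex as a covariate 19 of the 60 genes were lower in BA at 260 dpc at an unadjusted p under 0.05. Leaving out the 5 arrays in turn gave 17 to 22.

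Each of 2 slides held 1 foetus of each breed at 260 dpc. On slide 4, where both were female, the median difference of the 60 genes was -0.21 with 43 below 0 (71.7%), against -0.02 and 52.8% over all genes. On slide 2, with a female BA and a male CH foetus, it was -0.23 with 36 below 0 (60%), against 0.04 and 43.8%. Of the 20 genes lower in BA, all 20 were below 0 on slide 2 and 18 on slide 4, the exceptions being *PSPH* (0.41) and *SLC7A5* (0.07). As these 20 were picked on the same arrays, that count is no separate evidence of a direction. Single genes were closer together on slide 4, as in *ASNS* (-1.81 on slide 2 and -0.64 on slide 4) and *CEBPG* (-1.97 and -0.50), while *AARS1* differed alike (-0.69 and -0.63).

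Without CH replicate 3, 27 of the 31 probes that passed had a gene name, and they covered 22 genes, 17 of them in the 4 amino acid lists. This leaves 2 female BA against 2 male CH foetuses. In that fit *PYCR1* differed by -1.84 (adjusted p = 6e-04), *MARS1* by -1.33 at its second probe (adjusted p = 0.0013), *AARS1* by -0.98 (adjusted p = 0.0044) and *ASNS* by -2.14 (adjusted p = 0.0054). The other 5 genes, named after their values were seen, were *CDKN1A*, *PCK2*, *SCAMP5*, *ABI2* and *CS*. *CDKN1A*, a brake on the cell cycle, was at 3.24 and 3.39 in BA and at 5.19, 5.37 and 3.87 in CH with all arrays used (-1.49, SE 0.34, adjusted p = 0.25), while its other tested probe differed by -0.51 with overlap. *PCK2*, the mitochondrial form of an enzyme that draws on the citrate cycle for glucose synthesis, was at 0.46 and -0.19 in BA and at 2.03, 1.92 and 0.07 in CH (-1.20, adjusted p = 0.69), so the female CH foetus lay within the BA range.

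The metabolism lists covered glycolysis, glycogen, the citrate cycle, oxidative phosphorylation, mitochondrial ribosomes and regulators, fatty acid use and phosphagens, which together feed ATP to the contracting fibre. Of 254 genes tested, 175 were below 0 (68.9%, against 50.8% of all genes), but the median was -0.06. At an unadjusted p under 0.05, 7 were lower and 1 was higher, against 2.61% and 3.09% of all genes. Both BA arrays were below the CH arrays in 20 (7.87%, against 9.75%) and above them in 9 (3.54%, against 8.7%). Their median at the earlier stages was -0.05.

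The pairs of foetuses on 1 slide went opposite ways in these lists. The median of the 254 genes was 0.23 on slide 2, with 46 below 0, and -0.20 on slide 4, with 197 below 0. Of the 254, 161 were above 0 on slide 2 and below 0 on slide 4, and 32 were below 0 on both. Centred as above, the median level of these genes was 0.61 and 0.65 in BA, 0.84 and 0.78 in CH replicates 2 and 3, and 0.41 in CH replicate 1, the lowest of the 5. Without CH replicate 1, 212 genes were below 0, the median was -0.19, and 41 were lower and 0 higher at an unadjusted p under 0.05 in limma. Without BA replicate 1 the calls were 3 lower and 2 higher, without CH replicate 2 they were 7 and 4 with a median of 0.02, and without CH replicate 3 they were 5 and 6. With sex as a covariate 16 were lower and 0 higher, and in the deposited log2 values 2 and 0. Over all probes, 833 were lower and 621 higher without CH replicate 1, and 692 and 558 with sex as a covariate, against 513 and 563 in the main fit. With female foetuses alone, or the male CH arrays at 260 dpc left out, CH replicate 3 was the only CH array at that stage. The median of the 254 genes was then -0.16, with 199 below 0.

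**Figure D5:**
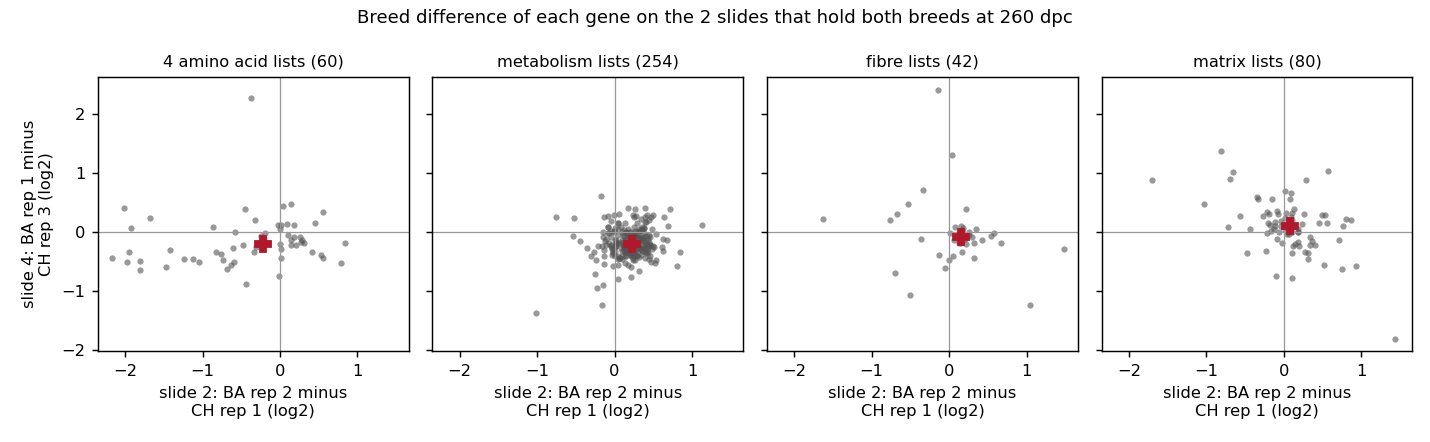
BA minus CH difference in log2 of each tested gene on slide 2 (BA replicate 2 minus CH replicate 1, horizontal) and slide 4 (BA replicate 1 minus CH replicate 3, vertical), for the amino acid, metabolism, fibre and matrix lists; red crosses are medians. The cross lies below 0 on both axes for the amino acid lists (-0.23 and -0.21) and at 0.23 and -0.20 for the metabolism lists.

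Of the metabolism lists, fatty acid use had the largest share of genes below 0, 25 of 26 (median -0.13). Of these genes 3 were lower at an unadjusted p under 0.05, against 2.61% of all genes, and 6 had BA below every CH array (23.1%, against 9.75%). Centred as above, the level of this list was 0.53 and 0.71 in BA and 0.68, 0.90 and 0.95 in CH. BA replicate 2 was thus above CH replicate 1. *CPT2*, which readies fatty acids for breakdown inside the mitochondrion, was at 3.39 and 3.61 in BA and at 3.86, 3.84 and 4.11 in CH (-0.44, SE 0.15, adjusted p = 0.72). *ACADL*, a dehydrogenase of long-chain fatty acids, differed by -0.41 with no overlap, *ECHS1*, the short-chain hydratase, by -0.36 with overlap, and *HADHA*, of the trifunctional protein, by -0.23 with no overlap. The citrate cycle had 25 of 29 genes below 0 (median -0.10) and oxidative phosphorylation 51 of 72 (median -0.05). In neither list did a gene have an unadjusted p under 0.05. The citrate cycle level was 0.78 and 0.84 in BA and 0.69, 1 and 0.99 in CH, so both BA arrays were above CH replicate 1. *SDHB*, a subunit of succinate dehydrogenase, was at 6.35 and 6.48 in BA and at 6.50, 6.65 and 6.93 in CH (-0.27, adjusted p = 1). *IDH3B*, of the isocitrate dehydrogenase, differed by -0.31 with overlap, and *GOT1*, of the malate-aspartate shuttle, by -0.33 without. *COX6A1*, a subunit of cytochrome oxidase, differed by 0.23 (adjusted p = 0.94).

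Of the mitochondrial ribosomal proteins 48 of 72 were below 0 (median -0.07), with 3 lower and 1 higher at an unadjusted p under 0.05. *MRPS26*, of the small subunit, was at 7.10 and 7.40 in BA and at 7.63, 8.35 and 8.04 in CH (-0.76, SE 0.18, adjusted p = 0.27). *MRPL37*, of the large subunit, differed by -0.91 at its brightest probe and by -0.18 at another, so its probes were unequal. *MRPS17* differed by 0.30 with both BA arrays above the CH arrays, and by 0.08 at its median probe. The regulators of mitochondrial content had 9 of 12 below 0 (median -0.16) and no gene at an unadjusted p under 0.05 in limma.

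In glycolysis 6 of 20 genes were below 0 and the median was 0.09. Centred as above, its median level was 1.15 and 1.14 in BA and 0.74, 1.30 and 1.21 in CH, so BA lay above CH replicate 1 and below the other CH arrays. *PFKFB3*, which makes an activator of glycolysis, was at 5.20 and 5.44 in BA and at 4.31, 4.75 and 5.08 in CH (0.60, SE 0.30, adjusted p = 0.96). *SLC2A1*, the basal glucose transporter, differed by -0.45 with no overlap and was the only member at an unadjusted p under 0.05. Glycogen genes had a median of 0.03 and the phosphagen and adenylate genes one of -0.02, both with no gene at that threshold.

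The probes of *CS*, citrate synthase, disagreed. The brightest was at 7.27 and 7.24 in BA and at 7.07, 7.37 and 7.49 in CH, a difference of -0.06 (SE 0.12). A dimmer probe was at 4.63 and 4.52 in BA and at 3.18, 3.63 and 3.58 in CH, a difference of 1.11 (SE 0.19, adjusted p = 0.11). On that probe both BA arrays lay above every CH array, and BA was also higher at the earlier stages, by 0.75 on average. Another probe, under the filter, differed by 0.67. Which of them follows the whole transcript was not tested, so no direction is given for *CS*.

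Slow fibres carry the myosin and troponin isoforms encoded by *MYH7*, *MYL2* and *TNNC1*, fast fibres those of *MYH1* and *MYH2*, and foetal muscle also holds *MYH3* and *MYL4*. Of the 42 fibre genes tested 18 were below 0, with a median of 0.02, and none had an unadjusted p under 0.05 in limma. Their median at the earlier stages was -0.14. The slow genes had a median of -0.08 at 260 dpc (7 of 12 below 0), the fast genes one of 0.04 (3 of 11 below 0), and the developmental and cardiac isoforms one of 0.07 (3 of 8 below 0). On slide 2 the median of the 42 was 0.16 and on slide 4 it was -0.07, and with sex as a covariate the median over all 5 arrays was -0.06.

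*MYH7*, the slow myosin heavy chain, was read by 6 tested probes, all below 0 and between -0.81 and -0.04. The brightest was level between the breeds, at 11.09 and 11.18 in BA and at 11.17, 11.23 and 11.11 in CH. The probe with the largest difference was at 4.95 and 5.02 in BA and at 6.02, 5.23 and 6.13 in CH (-0.81, SE 0.37, adjusted p = 0.93), and 3 of the 6 were without overlap. *TNNC1*, the slow troponin C, was at 11.60 and 11.58 in BA and at 11.71, 11.74 and 11.98 in CH (-0.22, SE 0.25). All 3 of its probes had BA below every CH array, with differences of -0.55, -0.36 and -0.22. The 2 BA foetuses were almost equal there, and CH replicate 3 was the highest.

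*ATP2A2*, the slow calcium pump, had both BA arrays above the CH arrays at its brightest probe (0.14, SE 0.12, with 4 probes between -0.52 and 0.14), and the other slow genes overlapped between the breeds. The slow light chain *MYL2* differed by -0.12, the slow tropomyosin *TPM3* by -0.23 and the Z-disc protein *MYOZ2* by -0.25. The fast myosins *MYH1* and *MYH2* differed by 0.18 and -0.14, with SEs of 0.15 and 0.23. The embryonic myosin *MYH3* differed by 0.33. *MYL4*, the embryonic light chain, was at 6.56 and 4.72 in BA and at 4.87, 5.48 and 4.15 in CH, so its difference of 0.81 rested on BA replicate 1.

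The matrix lists held collagens and the proteins that process, bind or cut them. Of 80 genes tested 27 were below 0, the median was 0.06, and 6 were higher and 0 lower in BA at an unadjusted p under 0.05 in limma, against 3.09% and 2.61% of all genes. Both BA arrays were above the CH arrays in 8 genes (10%, against 8.7%) and below them in 0. At the earlier stages the median was -0.19, and the median of the 260 dpc difference minus the earlier mean was 0.23, with 6 genes higher and 0 lower at an unadjusted p under 0.05. The count rested on single arrays. It was 1 higher without BA replicate 1 (median -0.06, 52 below 0), 3 without CH replicate 2, 6 without BA replicate 2 and 7 without CH replicate 3. Without CH replicate 1 it was 7 higher and 1 lower, with a median of -0.01. With slide as a block, as in the deposited log2 values, 0 were lower and 2 higher. With female foetuses alone, or the male CH arrays at 260 dpc left out, CH replicate 3 was the only CH array at that stage. The median of the 80 genes was then -0.05, with 44 below 0.

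BA replicate 1 also had the highest level of *TNMD*, a tendon gene, at 2.18 against -1.46 in BA replicate 2 and -1.53, -0.82 and -0.70 in CH. The summed level of the 6 tendon and cartilage markers with a probe was 8.34 to 18.3 in BA and 6.68 to 8.15 in CH, and 4 of the 6 were well above background on all 5 arrays. The part of this tissue in the matrix values was not tested. Fibroblast markers summed to 359 to 515 in BA and 376 to 545 in CH.

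By role, the proteases and their inhibitors had the highest median, 0.16, with 3 of 14 higher at an unadjusted p under 0.05. *MMP19*, a metalloproteinase, was at 3.05 and 2.54 in BA and at 1.96, 1.67 and 2.02 in CH (0.91, SE 0.26, adjusted p = 0.50), and BA was higher by 1.08 at the earlier stages too. *PLAU*, urokinase, differed by 0.57 and *ADAMTS5*, which cuts proteoglycans, by 0.42, both with no overlap, but *ADAMTS5* differed by 0.08 at its other tested probe. Genes of collagen processing had a median of 0.14 with 13 of 15 above 0, among them the cross-linking enzyme *LOXL2* at 0.28. The collagens themselves had a median of -0.02. *COL15A1*, a collagen next to basement membranes, was at 4.76 and 4.80 in BA and at 4.30, 4.04 and 4.46 in CH (0.51, SE 0.14, adjusted p = 0.42). The fibrillar collagens *COL1A1* (-0.15, SE 0.29) and *COL3A1* (-0.18, SE 0.23) overlapped. *CCN3*, a matricellular protein, was at 4.00 and 3.1 in BA and at 2.82, 2.34 and 3.11 in CH, with CH replicate 3 level with BA replicate 2 (0.80, SE 0.33).

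Myostatin restrains muscle growth, and follistatin binds and blocks it. *MSTN* stood at 3.81 and 4.18 in BA and at 1.82, 2.70 and 1.14 in CH, with both BA foetuses above all CH foetuses. Its difference was 2.11 (SE 0.44, adjusted p = 0.23) and its other probe gave 2.22 (SE 0.41, adjusted p = 0.15). The mean difference at the earlier stages was 1.96, and the 260 dpc difference minus it was 0.15. *FST*, follistatin, was at 4.11 and 3.73 in BA and at 4.35, 4.90 and 4.60 in CH (-0.70, SE 0.19, adjusted p = 0.41), against -0.45 at the earlier stages. *FSTL3*, a related antagonist, differed by 0.54 at its brightest probe and 0.01 at another. These were among 12 myostatin and activin genes, of which 1 was lower and 1 higher at an unadjusted p under 0.05. Of 9 genes of the IGF system, only *H19*, an imprinted non-coding RNA beside *IGF2*, passed that threshold, at -0.34, and its 3 probes ran from -0.34 to 0.39.

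Of the genes with the lowest p whose arrays did not overlap, 3 of the 12 lower ones were outside the amino acid lists. Of these, *SUMO3*, a protein tag, was at 3.97 and 3.94 in BA and at 4.47, 4.41 and 4.41 in CH (-0.48, adjusted p = 0.24). The uncharacterised *MGC157368* differed by -1.30 at the same adjusted p. Among those higher in BA, *ABI2*, which regulates actin, was at 0.21 and 0.60 in BA and at -0.44, -0.44 and -0.32 in CH. It differed by 0.81 (SE 0.13) and shared the lowest adjusted p, 0.11. Its CH mean at 260 dpc, -0.40, was under the filter level of 0. It was thus tested only because BA at 260 dpc, where it is high, was above 0, and its p is no independent support. With normexp background correction it differed by 0.44. *SCAMP5*, a vesicle membrane protein, was at 3.67 and 4.00 in BA and at 1.91, 1.60 and 2.91 in CH (1.70, SE 0.37, adjusted p = 0.25).

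The clotting inhibitor *TFPI* differed by 0.87 (adjusted p = 0.23) and by 0.48 at its other tested probe. *SERPINE2*, a serine protease inhibitor, differed by 0.97 (adjusted p = 0.27). Like *ABI2*, it was tested only because BA at 260 dpc was above 0, its CH mean being -0.48. *PCYT1A*, of phosphatidylcholine synthesis, differed by 0.61, *GGH* and *GGACT*, which act on gamma-glutamyl bonds, each by 0.70, *PBXIP1* by 0.80 at 1 probe and 0.01 at its others, *LOC513767* by 0.89 and the protease *PRSS23* by 1.16. Adjusted p values of these 6 were 0.25 to 0.31. *PRSS23* was also higher in BA at the earlier stages, by 0.69.

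In the contrast with the earlier stages the genes with the lowest p all had an adjusted p of 0.53. This contrast concerns the BA minus CH difference, not the level of a gene. The difference was lower at 260 dpc than before in *PYCR1* (-1.48), *MARS1* (-1.14 at its second probe), *ARSA*, a lysosomal sulphatase (-0.92), *AARS1* (-0.87) and *ATF4* (-0.80 at its probe with the largest difference). It was higher at 260 dpc in *BCHE*, butyrylcholinesterase (0.93), *CEMIP2*, a hyaluronidase of the cell surface (0.78), *ABI2* (0.68) and the microtubule genes *MAPRE2* (0.66) and *STMN1* (0.55). The probes of *MAPRE2* disagreed, with a difference at 260 dpc of 0.49 at this probe and of 0.08 at its median probe. *ARSA* was at 2.61 and 2.54 in BA and at 3.22, 3.1 and 3.25 in CH, and its mean earlier difference was 0.30.

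Genes that the study singles out at this stage were 33, of which 28 were tested. They had a median of -0.03, with 5 lower and 1 higher in BA at an unadjusted p under 0.05. The study chose this list on these samples, so its counts are no independent evidence of a direction. Among the 5, *PXMP2*, a peroxisomal membrane channel, was at 4.38 and 4.71 in BA and at 5.14, 5.18 and 5.63 in CH (-0.77, SE 0.22, adjusted p = 0.46). *XIST*, the RNA that silences an X chromosome, was at 7.61, 6.81 and 7.51 on the 3 arrays labelled female and at -1.67 and -0.84 on the 2 labelled male, as the labels have it.

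Immune and other cell markers were also read. Of 13 genes of antigen presentation by MHC class I, 11 were above 0 (median 0.38), and 5 had both BA arrays above the CH arrays (38.5%, against 8.7% of all genes). *TAP2*, a peptide transporter of that pathway, was at 2.69 and 2.63 in BA and at 2.10, 1.12 and 1.46 in CH (1.10, SE 0.43, adjusted p = 0.82), against 0.98 at the earlier stages, while *CANX*, a chaperone, differed by -0.25 at its brightest and -0.03 at its median probe. Of 13 interferon response genes 11 were above 0 (median 0.19, against 1.04 at the earlier stages), and none had an unadjusted p under 0.05 in limma. Of 9 endothelial markers tested 7 were above 0 (median 0.21), and 4 had both BA arrays above the CH arrays (44.4%, against 8.7% of all genes). *CDH5* (0.78), *PECAM1* (0.56) and *EMCN* (0.37) were higher at an unadjusted p under 0.05, where 3.09% of all genes were, and *VWF* (-0.54) was lower. At their median probes *CDH5* differed by 0.27 and *PECAM1* by 0.26. The markers summed to 225 to 233 in BA and 174 to 205 in CH. Leukocyte markers summed to 149 to 157 in BA and 135 to 164 in CH, and adipocyte markers to 68.5 to 125 and 95 to 110. *FABP4*, a fatty acid binding protein of fat cells, was at 4.47 in BA replicate 1 and 0.15 in BA replicate 2, and at 0.49, 2.80 and 1.09 in CH. Of the other adipocyte genes *CIDEA* differed by 0.57, *PPARG* by -0.52 and *PNPLA2* by -0.59. *KLF15*, a glucocorticoid target that promotes amino acid breakdown, was at 2.77 and 3.07 in BA and at 3.19, 3.77 and 4.11 in CH (-0.77, SE 0.25, adjusted p = 0.63). *DNAJB1*, a heat shock gene, differed by 0.62 with both BA arrays above the CH arrays, and the immediate early and heat shock genes summed to 1990 to 2020 in BA and 1820 to 1930 in CH. The part of these markers in the values above was not tested.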

How the data were processed

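RNA of 21 foetal muscles was hybridised to single-colour bovine 4x44K arrays, and the authors' Feature Extraction 10.7 files hold the intensity of each spot. The authors also deposited 649670 values on a log2 scale, and 649571 (99.98%) of them lay within 0.01 of the log2 of the scanner intensity. Control spots and 258 outlier spot values were left out, no spot was saturated, and spots of a probe were averaged. Each array was scaled by its 75th percentile and a constant of 2.69 was added. Probes above 0 in the mean of at least 7 of the 8 breed and stage groups were tested. Files were read with data.table (version 1.17.8), and R 4.3.3 with limma 3.58.1 gave the fit, which had 13 residual and 3.79 prior degrees of freedom. The contrasts were BA minus CH at 260 dpc, and that difference minus the mean of those at 110, 180 and 210 dpc. Adjusted p values are Benjamini-Hochberg over all 20150 probes and a probe passed under 0.05.

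Of 43653 probes, 26628 were named (12538 genes) through their accessions and the RefSeq annotation of ARS-UCD2.0. As the array was designed on another assembly, no position is given, and sequences were not analysed here. The breeds, the gene lists and the tests were chosen with earlier results of these data known. Named genes were the 12 of lowest p without overlap in each direction, those of lowest p in each list, those the study singles out at this stage, the 5 of lowest p in each direction of the second contrast, and cell markers. Lists are described by counts and medians only. Arrays numbered alike did not deviate together (median correlation of deviations 0.028 over 66 pairs, against -0.0013 over 126 others), so the numbers were not taken to pair the foetuses. Other settings tried were the background correction, scaling, deposited table, filter, probe of a gene, variance model, sex, slide, scan day, sire and replicate number in the model, female foetuses or 260 dpc arrays alone, and each array left out. Leaving out the male CH arrays at 260 dpc and the scan day were added after the data were seen. Without those male arrays, or with female foetuses alone, only CH replicate 3 is left for CH at 260 dpc. Without either BA array at 260 dpc, only the other BA array is left there. Counts from these fits thus rest on that array. The scripts were tested on simulated data. A few genes that these rules name are not reported here.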

Additional observations from a re-analysis of the deposited data

How the results depend on the processing

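The absence of probes at an adjusted p under 0.05 by limma gave way to 1 probe in the authors' value table (*MSTN*, 2.26), 6 with no filter on low values, 1 over probes well above background on all 21 arrays, and 0 to 31 when single arrays were left out. The count at an unadjusted p under 0.05, 1076, became 187 in the authors' value table, 2006 with no filter, 1632 with female foetuses alone, and 884 to 1454 without single arrays. In those deposited values 68 were lower and 119 higher in BA (36.4% lower, against 47.7%). Over all listed genes, 40 had an unadjusted p under 0.05, against 22 in the authors' values, 66 with female foetuses alone and 29 to 80 without single arrays, the 80 being without CH replicate 1. The 20 amino acid genes lower in BA became 11 with the male CH arrays at 260 dpc left out and 17 to 22 without single arrays. In the contrast with the earlier stages, the 0 probes became 1 with female foetuses alone (*VIM*, 3.18) and 0 to 20 without single arrays, and the 19 amino acid genes became 12 with female foetuses alone, 10 with the male CH arrays left out and 14 to 23 without single arrays. Of the 102 named genes, 0 to 18 passed without single arrays, the 18 without CH replicate 3.

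With replicate number as a block, 0 probes passed, 1117 had an unadjusted p under 0.05 and 20 amino acid genes were lower, so the block changed no call. The contrast with earlier stages could not be computed on the arrays at 260 dpc alone.

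Signs turned in 12 of the 102 named genes. With female foetuses alone, and equally with the male CH arrays left out, *DDIT3* was 0.11, *PSPH* 0.13, *SLC38A2* 0.07, *PCK2* 0.06, *MYH7* 0.03 and *XIST* -0.30. With sex as a covariate *XIST* was -0.61 and *COL1A1* 0.12. *RARS1* was 0.01 in the authors' values, 0.02 with slide as a block and -0.17 to 0.07 without single arrays, above 0 without CH replicate 2 or 3. *MYH7* was 0.01 in the authors' values and -0.08 to 0.01 without single arrays. Without single arrays *MYL4* was -0.12 to 1.73 and *COL1A1* -0.49 to 0.19, negative for *MYL4* without BA replicate 1 and positive for *COL1A1* without BA replicate 2 (0.19) and CH replicate 2 (0.01). *COL3A1* was -0.35 to 0.03 and *MYH3* -0.03 to 0.61, with the sign turned without CH replicate 2, and *CS* at its brightest probe -0.17 to 0.03, above 0 without CH replicate 3. The causes were not tested.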
